A study of Mus musculus with 6 samples.

Results

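The 9 genes *Aqp4*, *Dag1*, *Dmd*, *Dtna*, *Utrn*, *Sgcd*, *Sgcb*, *Sgce* and *Sspn* encode the water channel aquaporin-4 and components of the dystrophin complex that holds it at astrocyte endfeet. They were chosen by name, with measurements of these libraries in view, out of 32285 genes counted by scRNA-seq in cells sorted from the mouse amygdala. The rule also set the cells they were read in. Over all 13546 barcodes of 3 libraries, 8757 astrocytes were taken as barcodes with at least 20 UMIs of *Slc1a2* and *Slc1a3* together and at most 3 of *Vtn* and *Rgs5*, and 2260 pericytes as barcodes with at least 10 UMIs of *Vtn* and *Rgs5* and at most 5 of *Slc1a2* and *Slc1a3*. A UMI is a molecular tag that lets each captured RNA molecule be counted once. The remaining 2529 barcodes belonged to neither class. The astrocyte against pericyte contrast, and the contrast of astrocytes with and without *Adrb1*, the β1-adrenoreceptor gene, were selected on these same values and are therefore given as descriptions with no test.

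The study asked how amygdala astrocytes differ in state after fear learning and recall. The labels give the mice as male, wild-type and C57BL/6N, while the methods describe young adults of both sexes over the whole study. Their amygdalae were dissected 90 min after behaviour in the presence of the transcription and translation blockers actinomycin D, triptolide and anisomycin, with sorting for ACSA-2, a surface epitope carried by the product of *Atp1b2*. The groups were non-shocked mice (NoFC), fear-conditioned mice (FC), conditioned mice without recall (NoFR) and conditioned mice tested for recall (FR), with 4 mice in each, pooled after staining with hashtag antibodies that record the mouse of each cell. By the paper, FC tissue was taken 90 min after conditioning. NoFR mice stayed in the home cage and were taken a day after conditioning, and recall of FR mice was also a day after it. Comparisons of FC with NoFR or FR mice therefore also differ in time since the shocks. The mice were spread unevenly over the libraries: the first took 2 from every group, the next took 2 FC mice with a single NoFC and a single FR mouse, and the last took 2 NoFR mice with a single NoFC and a single FR mouse.

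Aquaporin-4 lets water cross the astrocyte membrane and is concentrated where endfeet wrap blood vessels. Dystrophin (*Dmd*) or its relative utrophin (*Utrn*) links the actin skeleton to dystroglycan (*Dag1*), which binds laminin, agrin and perlecan in the basal lamina outside the cell. α-Dystrobrevin (*Dtna*) and the syntrophins bind dystrophin on the inside, and the complex tethers aquaporin-4. The sarcoglycans (*Sgcb*, *Sgcd*, *Sgce*) and sarcospan (*Sspn*) form a membrane subcomplex that steadies dystroglycan, best known from muscle. Pericytes sit inside the basal lamina of capillaries, facing the endfeet across it.

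Library totals ran from 31700569 to 42350059 gene UMIs. Astrocytes had medians of 9667, 10281 and 9832 UMIs per cell in libraries 1, 2 and 3, and pericytes 4833, 5206 and 5028. The libraries shared 3 to 8 barcodes in each pair. Of 12 astrocyte markers not used to choose the cells, 11 were at least 2-fold higher in astrocytes in every library, and of 6 pericyte markers all 6 were at least 2-fold higher in pericytes. The exception was *Atp1b2*, the gene behind the sorted epitope, at 817 ± 27.3 CPM (UMIs of a gene scaled to a common UMI total, mean ± SD over 3 libraries) in astrocytes and 677 CPM in pericytes. Markers of other cells were present in the pericyte class: smooth muscle markers summed to 151–209 CPM there, endothelial markers to 134–143 CPM, nearly all from *Flt1* with *Pecam1* at 1.40 CPM, and perivascular fibroblast markers to 225–258 CPM, mostly *Col1a2* at 208 CPM. The oligodendrocyte precursor list summed to 749–782 CPM through *Cspg4* at 765 CPM, which pericytes are also known to express, with *Pdgfra* at 2.26 CPM and *Olig1* at 0.410 CPM. In astrocytes, summed levels were 8.84–12.1 CPM for neuron, 10.4–11.3 CPM for oligodendrocyte, 15.4–18.9 CPM for microglia, 26.2–27.9 CPM for oligodendrocyte precursor and 131–145 CPM for pericyte markers, the last mostly *Pdgfrb* at 71.9 CPM and *Atp13a5* at 62.5 CPM. Ependymal markers stayed under 1 CPM in both classes, and their defining gene *Ccdc153* was at 0. The part of these other cells in the members' values was not tested.

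The genes lie on 7 chromosomes of GRCm38, by the GENCODE vM21 annotation, and differ widely in length. *Dag1* (ENSMUSG00000039952) occupies 108204634–108263958 on the reverse strand of chromosome 9. *Utrn* (ENSMUSG00000019820) covers 487 kb on the reverse strand of chromosome 10, from 12382188 to 12869365. *Sgcd* (ENSMUSG00000020354) covers 1093 kb on the reverse strand of chromosome 11, from 46896253 to 47988969. *Sgcb* (ENSMUSG00000029156) takes 15.0 kb of chromosome 5, *Sgce* (ENSMUSG00000004631) 72.9 kb of chromosome 6 and *Sspn* (ENSMUSG00000030255) 33.6 kb of the same chromosome. *Dmd* (ENSMUSG00000045103) is the longest, at 2257 kb of the forward strand of the X chromosome, from 82948870 to 85206141. Other annotated genes overlap 7 of the 9 members, all but *Dag1* and *Sgce*. They include antisense genes at *Aqp4* (AC133525.2), *Dtna* (Gm47898) and *Sspn* (Sspnos), same-strand genes at *Dmd*, *Utrn*, *Sgcd*, *Sgcb* and *Sspn*, and the protein-coding *Tsga8* on the other strand of *Dmd*. How the counting treated strand and introns was not given in the sources used here, so reads of such overlaps could not be told apart.

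A count for *Dmd* covers products of very different size. The full-length transcript Dmd-203 starts at 82948903 and codes over 11034 bases, whereas Dmd-201 and Dmd-202 start at 85048413 and code over 1851 and 1812 bases, the short form of dystrophin that predominates in brain glia. The counts per gene do not separate these starts. RefSeq windows on GRCm38.p6, from 250 bases before to 50 bases after an annotated start, were given for 6 of the 9 members (not for *Aqp4*, *Dtna* and *Sgce*). The starts of *Dmd*, which serves both cell classes, and a start of *Sgcd*, which varied most from astrocyte to astrocyte, are shown here 5′ to 3′ on the gene's own strand. The *Sgcd* window lies inside the gene, whose 5′ end on the reverse strand is at 47988969, and no window at that end was given. The downstream *Dmd* window follows a RefSeq start and ends at 85048344, so it does not hold the start at 85048413 given above for Dmd-201 and Dmd-202. Capitals mark GC boxes, the letters GGGCGG or their reverse CCGCCC.
*Dmd*, upstream start, chrX:82948620-82948919, forward strand: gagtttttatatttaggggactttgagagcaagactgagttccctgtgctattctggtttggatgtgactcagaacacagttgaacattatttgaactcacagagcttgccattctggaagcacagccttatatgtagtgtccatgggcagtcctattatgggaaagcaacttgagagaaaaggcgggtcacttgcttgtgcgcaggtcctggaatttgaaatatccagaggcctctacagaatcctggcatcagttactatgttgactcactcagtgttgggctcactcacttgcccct
*Dmd*, downstream start, chrX:85048045-85048344, forward strand: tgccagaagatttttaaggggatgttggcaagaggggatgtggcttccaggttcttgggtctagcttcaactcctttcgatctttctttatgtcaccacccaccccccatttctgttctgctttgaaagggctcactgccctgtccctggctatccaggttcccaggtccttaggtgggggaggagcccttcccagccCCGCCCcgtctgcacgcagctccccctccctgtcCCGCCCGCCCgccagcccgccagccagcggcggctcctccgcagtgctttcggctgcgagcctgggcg
*Sgcd*, chr11:47379276-47379575, reverse strand: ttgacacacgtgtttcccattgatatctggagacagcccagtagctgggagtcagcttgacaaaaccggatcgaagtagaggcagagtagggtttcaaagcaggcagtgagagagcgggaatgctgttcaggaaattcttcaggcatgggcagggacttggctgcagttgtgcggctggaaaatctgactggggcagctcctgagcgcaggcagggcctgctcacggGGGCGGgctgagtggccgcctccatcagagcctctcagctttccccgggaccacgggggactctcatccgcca
The upstream window of *Dmd* held 0 GC boxes at a GC content of 45.7%, the downstream window held 3 matches at 62.7%, with a pair of them overlapping, and the *Sgcd* window held 1 match at 59.0%. Of 32851 windows of 300 bases, 35.7% held a GC box. The letters TTCCGG, or CCGGAA on the other strand, an N-box known from the *Utrn* promoter, were found in 14.9% of all windows and in 0 windows of the members. The *Utrn* window given, chr10:12861686-12861985, lies inside the gene, whose 5′ end on the reverse strand is at 12869365. A promoter at that end was therefore not searched for the N-box.

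*Aqp4*, *Dtna* and *Sgcd* were at least 2-fold higher in astrocytes in every library, *Utrn* and *Dag1* were at least 2-fold higher in pericytes in every library, and the other 4 members lay within 2-fold between the classes. Counted over 14100 genes with at least 30 UMIs in both classes together in each library, 20.1% passed the 2-fold limit towards astrocytes and 18.0% towards pericytes. As the members were chosen on this contrast, nothing is read from 3 and 2 of 9 against these shares.

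*Aqp4* (ENSMUSG00000024411) spans 15389496–15410982 on the reverse strand of chromosome 18. It stood at 555, 573 and 580 CPM in the astrocytes of libraries 1, 2 and 3 and at 4.30, 4.24 and 7.52 CPM in the pericytes, from 62 UMIs in all pericytes. The log2 ratio was 6.79 ± 0.45 (SD, n = 3 libraries), or 110-fold. With every cell thinned to 3000 UMIs, 74.1 ± 0.845% of astrocytes and 1.35 ± 0.249% of pericytes kept an *Aqp4* UMI. Without thinning these shares were 88.8% and 2.60%. Thinning left out 148 to 204 astrocytes and 42 to 70 pericytes per library, and intervals over libraries cover the spread between libraries only.

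*Dtna* (ENSMUSG00000024302), at 23415135–23659715 on the forward strand of chromosome 18, was counted at 1444, 1479 and 1437 CPM in astrocytes and at 11.1, 9.61 and 10.5 CPM in pericytes, a log2 ratio of 7.13 ± 0.12 and 140-fold. *Sgcd*, the δ-sarcoglycan gene, had 116, 128 and 128 CPM in astrocytes and 2.72, 1.98 and 2.95 CPM in pericytes, with 30 UMIs in all pericytes, for a log2 ratio of 5.62 ± 0.34 and 49.3-fold. After thinning, 95.3 ± 0.655% of astrocytes had a *Dtna* UMI against 3.02% of pericytes, and 20.0 ± 0.496% had a *Sgcd* UMI against 0.644% of pericytes. The pericyte level was 0.906% of the astrocyte level for *Aqp4*, 0.714% for *Dtna* and 2.03% for *Sgcd*. For the 11 astrocyte markers other than *Atp1b2* this figure ran from 0.720% (*Gpc5*) to 2.12% (*Mlc1*). The figures of these 3 members lay in or next to that range, and the part of free astrocyte RNA in them was not tested.

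*Utrn* reached 1150, 1261 and 1206 CPM in pericytes and 216, 229 and 250 CPM in astrocytes, 5.21-fold higher in pericytes (log2 ratio of astrocytes over pericytes −2.38 ± 0.10). *Dag1*, whose product is the receptor for the basal lamina, reached 418, 438 and 450 CPM in pericytes and 178, 194 and 180 CPM in astrocytes, 2.37-fold higher in pericytes (log2 ratio −1.25 ± 0.08). In thinned cells, *Utrn* was seen in 93.8% of pericytes and 44.3% of astrocytes, and *Dag1* in 70.1% and 40.4%. Each gene was therefore counted in both classes, at unequal levels.

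*Dmd* differed less, with 1090, 1103 and 1113 CPM in pericytes against 792, 842 and 873 CPM in astrocytes (log2 ratio −0.40 ± 0.06). Its thinned shares were 90.2% of pericytes and 83.0% of astrocytes. Of the subcomplex genes, *Sgcb* was higher in astrocytes, at 41.6, 43.1 and 41.3 CPM against 25.8, 24.9 and 30.1 CPM (log2 ratio 0.65 ± 0.17), the nearest to the 2-fold limit among those within it. *Sgce* stood at 83.6, 80.9 and 84.0 CPM in astrocytes and 93.0, 99.8 and 98.5 CPM in pericytes (log2 ratio −0.23 ± 0.07), and *Sspn* at 24.9, 22.3 and 23.2 CPM against 34.6, 27.4 and 28.7 CPM (log2 ratio −0.36 ± 0.10). The median log2 ratio was −0.23 over the members and −0.08 over all 14100 genes.

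**Figure D1:**
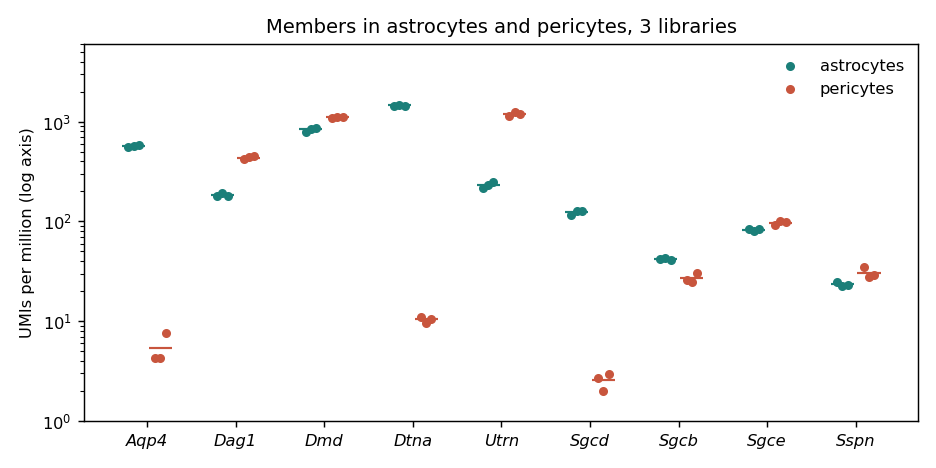
Level of each member in CPM (log axis) in astrocytes and pericytes, 1 point per library and a line at the mean of each class. *Aqp4*, *Dtna* and *Sgcd* sit far higher in astrocytes, *Utrn* and *Dag1* higher in pericytes, and the other 4 members within 2-fold.

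The other genes of the pathway were split between the classes in the same description. Of 10 further dystrophin-associated genes, 7 had enough UMIs to be counted, of which 5 passed 2-fold towards astrocytes and 2 towards pericytes. The UMIs for counting were taken over both classes together, here and below, so a gene can be counted through 1 class alone. *Drp2*, *Sgcz* and *Sntg1*, among the 5, had 2535, 396 and 598 UMIs in astrocytes and 3, 4 and 6 in pericytes. *Sntb1* and *Sntb2*, the 2 towards pericytes, had 3522 and 1963 in astrocytes and 5876 and 1077 in pericytes. *Dtnb* (β-dystrobrevin) had 61.1 CPM in astrocytes and 6.44 CPM in pericytes, and *Drp2*, a dystrophin-related gene, 27.8 against 0.264 CPM. *Sntb1* (β1-syntrophin) went the other way, at 38.3 CPM in astrocytes and 503 CPM in pericytes, a 13.2-fold difference, as did *Sntb2* at 21.5 and 92.5 CPM. The muscle gene *Sgca* was at 0.306 CPM in astrocytes and 0.151 CPM in pericytes and was not counted.

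Of 14 genes that put sugars on dystroglycan, 13 did not pass 2-fold in every library. Among these, *Pomt1* was past 2-fold in library 2 alone (20.5 CPM in astrocytes, 7.91 CPM in pericytes). *Large2* was past it in library 3 alone (1.40 and 0.537 CPM), with 12 UMIs in all pericytes. Of 17 endfoot partners and dystroglycan ligands, 16 were counted, with 6 past 2-fold towards astrocytes and 8 towards pericytes. Over all 14100 genes these shares were 20.1% and 18.0%, and nothing is read from the counts of the lists, which were chosen with earlier results known. The astrocyte side included the potassium channel gene *Kcnj10* (93.2 against 1.45 CPM), *Mlc1*, *Hepacam* and the gap junction genes *Gja1* and *Gjb6* (373 against 4.06 CPM). The pericyte side held basal lamina genes: *Agrn*, *Hspg2*, *Lama1*, *Lama4* (332 against 0.755 CPM), *Lamb1*, *Lamb2*, *Lamc1* (694 against 23.5 CPM) and *Lamc3*. *Lama2*, the α2-laminin gene, was counted in both classes at 758 ± 19.2 CPM in astrocytes and 979 CPM in pericytes. By their medians, the 3 lists stood at log2 ratios of 3.27, 0.25 and −1.08 of astrocytes over pericytes, in the order given. The first of these medians includes the genes counted through astrocytes alone. The last includes genes counted almost wholly through 1 class, such as *Lamc3* (40 UMIs in astrocytes, 4135 in pericytes) and *Kcnj10* (8478 and 18).

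Among astrocytes, *Sgcd* was far more uneven from cell to cell than the other members. In cells thinned to 3000 UMIs, the variance of its UMI count divided by the mean was 2.21, 2.26 and 2.25 in the 3 libraries, where 721 to 776 genes of similar mean had a median of 1.13, which placed it at the 99.5 to 99.6 percentile. No *Sgcd* UMI was found in 80.3%, 79.4% and 80.3% of thinned astrocytes, against 71.5%, 68.9% and 70.2% for a Poisson count of the same mean. Cells with at least 3 UMIs made up 3.07%, 3.99% and 3.67% and held 36.2%, 41.2% and 40.7% of all *Sgcd* UMIs.

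The other members lay between the 1.95 and 79.5 percentile of genes of their own level. The ratio of variance to mean was 1.46 ± 0.0667 (SD, n = 3 libraries) for *Aqp4*, where genes of similar mean had a median of 1.54. It was 1.97 ± 0.0475 against 1.76 for *Dmd*, 1.80 ± 0.0617 against 2.12 for *Dtna* and 1.38 ± 0.0370 against 1.25 for *Utrn*. *Dag1*, *Sgcb*, *Sgce* and *Sspn* lay between 1.04 and 1.11. In pericytes *Dmd* had 2.15 ± 0.297 against 1.60, and *Utrn* 1.81 ± 0.164 against 1.71. Genes of similar mean are those within 1.25-fold of the member's mean UMI count.

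**Figure D2:**
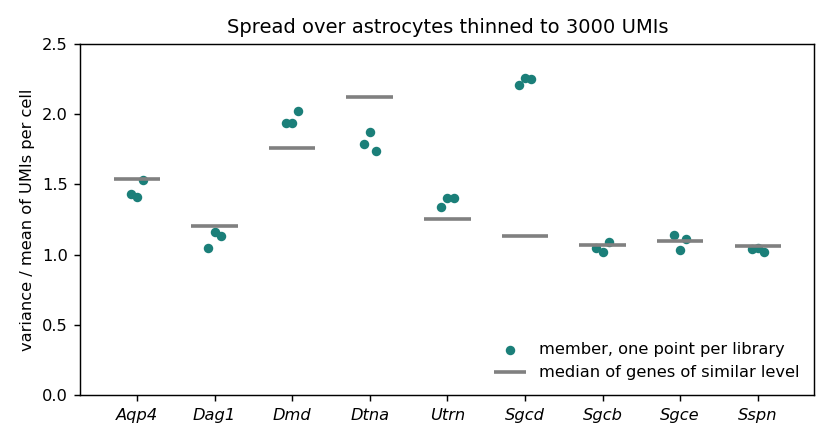
Variance over mean of the UMI count per astrocyte (cells thinned to 3000 UMIs) for each member, 1 point per library, beside the median of genes of similar mean. *Sgcd* sits near 2.24 where its like genes have 1.13.

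Because of this spread, astrocytes with at least 3 *Sgcd* UMIs were set beside astrocytes with none, matched within 10% on total UMIs in the same library. This split was made after seeing the data and gets no test. The limit was set on counts before thinning, where 14.5%, 16.8% and 16.3% of astrocytes in libraries 1, 2 and 3 met it. These cells are therefore a wider set than the thinned cells with at least 3 UMIs described above. The split held 517, 421 and 438 pairs. *Dmd* had 966, 994 and 1027 CPM in *Sgcd*-rich astrocytes and 772, 833 and 879 CPM in those without, a log2 ratio of 0.27 ± 0.05 (SD, n = 3 libraries). *Utrn* had 269, 270 and 298 CPM against 215, 224 and 240 CPM (log2 ratio 0.30 ± 0.03). Both dystrophin-family genes were thus counted higher in the *Sgcd*-rich cells of every library.

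*Sspn* (log2 ratio 0.31 ± 0.02) and *Dtna* (0.10 ± 0.03) also stood higher in all 3 libraries. *Aqp4* stood lower, at 509, 533 and 516 CPM against 544, 601 and 607 CPM (log2 ratio −0.17 ± 0.07), as did *Dag1* (−0.09 ± 0.01) and *Sgcb* (−0.14 ± 0.07). *Sgce* was lower in 2 libraries and higher in 1. Of 11791 genes, 23.2% stood higher in all 3 libraries and 26.0% lower, beside which 4 higher and 3 lower of 8 members are a description. The pericyte gene *Pdgfrb* had 61.9, 65.7 and 71.3 CPM in the *Sgcd*-rich cells and 70.8, 69.4 and 72.3 CPM in the others. With limits of at least 2 or at least 5 *Sgcd* UMIs, also chosen after seeing the data, the log2 ratio of *Utrn* was 0.25 and 0.40.

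Astrocytes with at least 1 *Adrb1* UMI were paired in the same way with astrocytes without, in 648, 474 and 524 pairs. *Aqp4* had 599, 621 and 649 CPM in *Adrb1*-positive astrocytes and 550, 564 and 568 CPM in their partners (log2 ratios 0.12, 0.14 and 0.19, mean 0.15 ± 0.04, SD, n = 3 libraries). *Dag1* had 188, 204 and 190 CPM against 174, 180 and 180 CPM (0.12 ± 0.05), and *Sspn* 25.6, 22.5 and 23.2 CPM against 23.8, 20.4 and 20.9 CPM (0.13 ± 0.02). Each of the 3 was higher in all libraries.

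*Dtna* (−0.03 ± 0.01) and *Utrn* (−0.04 ± 0.04) were lower in all libraries, by less than 3%. *Dmd*, *Sgcd*, *Sgcb* and *Sgce* did not keep a single sign. Of 11922 genes, 15.0% were higher in all 3 libraries and 18.4% lower, and nothing is read from the members' 3 and 2 of 9, since the rule used this contrast. The median log2 ratio was −0.01 over the members and −0.00377 over all genes.

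Read by mouse, in the 14 mice with at least 10 pairs, the split was less even. *Aqp4* was higher in *Adrb1*-positive cells of 9 mice and lower in 5, with log2 ratios from −0.23 to 0.77, and *Dag1* was likewise higher in 9 and lower in 5. *Sspn*, higher in every library, was lower in 12 of the 14 mice. *Dmd* was lower in 11 and *Dtna* in 10 of them. Cells with a mouse are a part of the cells of a library, and such small sums of *Sspn* rest on few UMIs.

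Of 11 counted endfoot partners and ligands, 7 were higher in *Adrb1*-positive astrocytes in all 3 libraries (*Kcnj10*, *Mlc1*, *Hepacam*, *Gja1*, *Gjb6*, *Lama5* and *Lamb2*) and *Lama2* was lower. Of 7 other dystrophin-associated genes only *Sntg1* was higher and *Sntb1* lower, and of 13 glycosylation genes 0 were higher and *Pomk* was lower. The median log2 ratios of the 3 lists were 0.08, 0.05 and −0.00131. Over all 11922 genes, 15.0% were higher and 18.4% lower in all 3 libraries. As the lists were chosen with earlier results of these data known, nothing is read from their counts. The lists were not read by mouse.

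**Figure D3:**
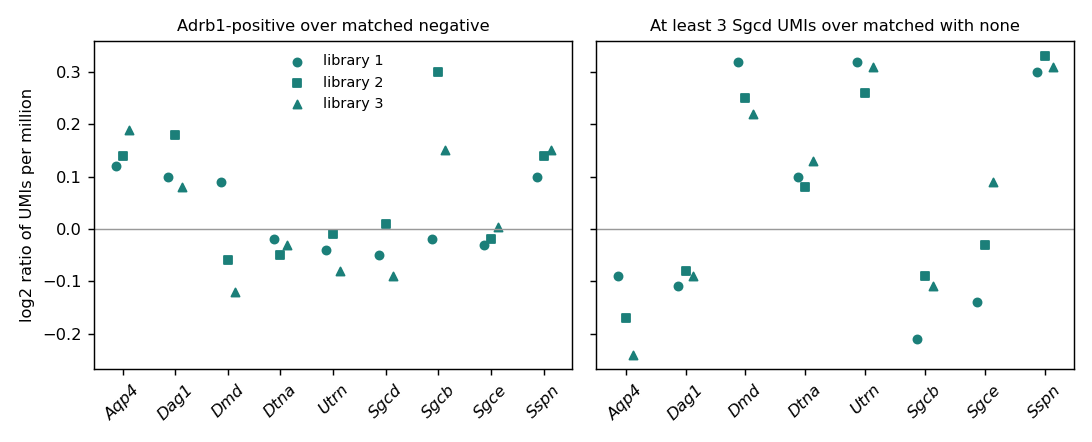
Log2 ratio of each member's CPM by library, 1 point per library, for *Adrb1*-positive over matched negative astrocytes and for *Sgcd*-rich astrocytes over matched astrocytes without *Sgcd*. *Aqp4* lies at 0.12, 0.14 and 0.19 in the first split and at −0.09, −0.17 and −0.24 in the second.

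The behavioural groups were compared over mice, which the rule did not use. Hashtag calls tied 1893 astrocytes to the 16 mice, 45 to 228 per mouse, with 533460 to 2540787 UMIs. These calls were weak on astrocytes, where the strongest hashtag had a median of 5 UMIs and the next 2, and under 10 UMIs in 88.5% of cells. On 879 pericytes the medians were 16 and 2, with 22.5% under 10 UMIs. Barcodes of any class called to a single hashtag numbered 1594, 1222 and 1633 in libraries 1, 2 and 3. Of these, 1370, 745 and 878 carried a hashtag listed for a mouse of that library. Without the mitochondrial filter, astrocytes called to NoFC mouse 3 went from 203 to 73 and to NoFC mouse 1 from 45 to 147. Those called to NoFR mouse 1 went from 106 to 105. How far cells given to a wrong mouse narrow the astrocyte comparisons was not tested. Behavioural batches of the mice were not used here. The p-values measure the spread between these mice, in astrocytes only as far as the weak hashtag calls hold.

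No member passed the test between groups in astrocytes. Over 9 members and 6 pairs of groups, edgeR's quasi-likelihood test called 0 of 54 comparisons, with a smallest adjusted p of 0.917, and 0 had an unadjusted p under 0.05. Over all 10140 genes the share called was 0% in each of the 6 pairs, while 333 to 538 genes had an unadjusted p under 0.05 and DESeq2 called 0 or 1 gene. The log2 differences of the members ran from −0.30 to 0.29.

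Levels per mouse are CPM scaled with edgeR's TMM factors. *Aqp4* stood at 593, 521, 566 and 546 CPM in the NoFC mice, 593, 553, 575 and 618 CPM in the FC mice, 509, 592, 555 and 575 CPM in the NoFR mice and 620, 579, 543 and 582 CPM in the FR mice. The groups overlapped throughout. The log2 difference of FR from NoFC mice was 0.05, with a 95% interval of −0.11 to 0.22.

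*Sgcd* varied most between mice, with 190, 103, 116 and 128 CPM in NoFC, 161, 120, 105 and 231 CPM in FC, 121, 111, 141 and 129 CPM in NoFR and 122, 157, 149 and 149 CPM in FR mice. FC mice were the most spread, and the log2 difference of FC from NoFC mice was 0.29 with an interval of −0.06 to 0.63. *Sgce* was the only member with a pair of groups that did not overlap, with 86.1 ± 6.01 CPM (SD, n = 4) in FR and 76.2 ± 2.33 CPM in NoFR mice. Its exact 2-sided permutation p was 0.0286, the smallest that 4 mice against 4 allow, and its adjusted p by edgeR was 0.999. This was 1 of 54 such comparisons in astrocytes, each with a probability of 0.0286 of no overlap if groups did not differ. The share of all genes whose groups did not overlap was not computed. *Dmd* averaged 832, 842, 778 and 842 CPM and *Dtna* 1461, 1520, 1398 and 1432 CPM in the order NoFC, FC, NoFR and FR.

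**Figure D4:**
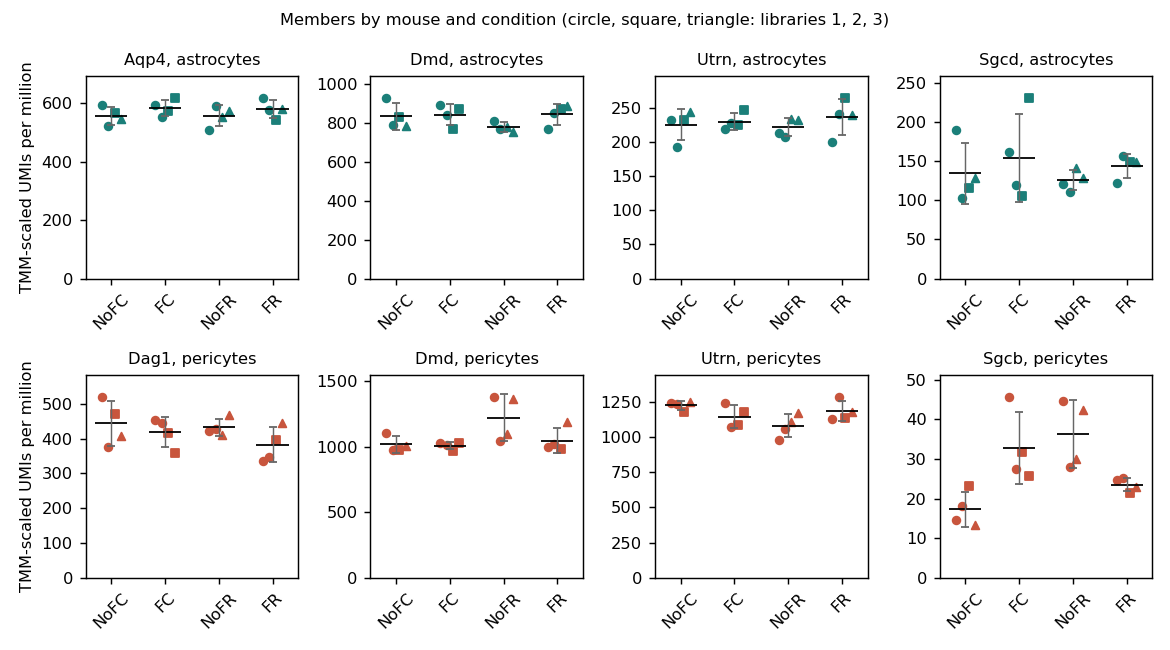
TMM-scaled CPM by mouse (axes from 0) of *Aqp4*, *Dmd*, *Utrn* and *Sgcd* in astrocytes (top) and *Dag1*, *Dmd*, *Utrn* and *Sgcb* in pericytes (bottom), 1 point per mouse (circle, square and triangle for libraries 1, 2 and 3), with the group mean and SD (n = 4). *Aqp4* points lie between 509 and 620 CPM in all groups.

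The 5 genes that followed *Aqp4* most closely over the 16 mice, out of 3575 genes with at least 50 CPM, were *Glt8d1* (Pearson r = 0.767), *Dzip3* (0.763), *Ide* (0.751), *Arhgap5* (0.749) and *Grin2c* (0.742), from log2 levels centred within library. Of the 6 other members above that level, *Sgcd* was nearest at 0.485. For *Sgcd* they were *Gigyf2* (0.929), then 2210408F21Rik, *Rps6kb1*, *Robo1* and *Srsf4* (0.836 down to 0.818), and *Dmd* (0.754) ranked 25 and *Utrn* (0.634) ranked 118. Points share libraries and cell numbers, and these values are descriptions.

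In pericytes, edgeR also called 0 of the 54 comparisons of members, with a smallest adjusted p of 0.397. An unadjusted p under 0.05 was found in 3, *Dmd* and *Sgcb* between NoFR and NoFC and *Sgcb* between FC and NoFC mice, where 521 and 268 of 5793 genes had one. The 879 pericytes gave 38 to 106 cells and 179205 to 575139 UMIs per mouse. Of the 9 members, 5 passed the filter on low counts, while *Aqp4*, *Dtna*, *Sgcd* and *Sgcb* were kept as members. Over 5793 genes, the share called was 0.949% between NoFR and NoFC mice, 0.345% between NoFR and FC, 0.0863% between FR and NoFC, 0.0518% between FR and NoFR, and 0% between FC and NoFC and between FR and FC. In these last pairs, with 0 calls by edgeR, 268 and 293 genes had an unadjusted p under 0.05 and DESeq2 called 0.

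*Dmd* had 1106, 977, 974 and 1005 CPM in pericytes of NoFC mice, 1024, 1011, 967 and 1028 CPM in FC, 1381, 1042, 1094 and 1363 CPM in NoFR and 994, 1018, 982 and 1187 CPM in FR mice. NoFR mice lay above all FC mice, at the smallest exact 2-sided permutation p of 0.0286, in a test that takes no account of library, and overlapped NoFC mice. The log2 difference of NoFR from NoFC was 0.26 ± 0.11 (SE), with an adjusted p of 0.397 by edgeR, and in library 1 alone, with 2 mice against 2, it was 0.22.

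*Utrn* had 1242, 1239, 1183 and 1249 CPM in NoFC, 1247, 1075, 1086 and 1178 CPM in FC, 983, 1059, 1107 and 1176 CPM in NoFR and 1133, 1290, 1137 and 1183 CPM in FR mice. NoFR mice lay below all NoFC mice, at an exact permutation p of 0.0286, whereas edgeR with its library term gave a log2 difference of −0.19, p = 0.0622 and an adjusted p of 0.603. In library 1 alone the log2 ratio was −0.28, and over all mice it was −0.12 without the mitochondrial filter and −0.03 at a hashtag quantile of 0.95. *Dag1* was at 444 ± 64.5 CPM in NoFC and 381 ± 50.5 CPM in FR mice, for a log2 difference of −0.23 (adjusted p = 0.881 by edgeR) that became 0.03 at that quantile, and the mice overlapped.

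*Sgcb* was lowest in NoFC mice, at 14.5, 18.0, 23.2 and 13.3 CPM, from 3 to 13 UMIs a mouse. FC mice had 45.8, 27.6, 31.7 and 25.6 CPM, NoFR mice 44.7, 27.9, 30.1 and 42.5 CPM and FR mice 24.6, 25.2, 21.5 and 22.9 CPM. NoFC mice did not overlap with FC or NoFR mice, nor FR mice with either, each at an exact permutation p of 0.0286. These comparisons share mice and are among the 54 in pericytes, each with a probability of 0.0286 of no overlap if groups did not differ. UMIs a mouse were 7 to 14 in FC, 5 to 11 in NoFR and 4 to 7 in FR mice. The highest FR mouse, at 25.2 CPM, had 5 UMIs and the lowest FC mouse, at 25.6 CPM, had 7. The share of all genes whose groups did not overlap was not computed, here or for *Dmd* and *Utrn*. For FR mice, edgeR gave log2 differences of −0.44 from FC (adjusted p = 0.988) and −0.68 from NoFR (adjusted p = 0.859). By edgeR the log2 differences from NoFC were 0.84 for FC (adjusted p = 1.000) and 1.09 ± 0.45 (SE) for NoFR (adjusted p = 0.405).

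The pathway lists gave 0 calls by edgeR across groups in either class. In astrocytes, 11 comparisons over the 3 lists had an unadjusted p under 0.05, and the smallest adjusted p was 0.891, for *Dtnb* and *Lama2*, each lower in NoFR than in FC mice. In pericytes the smallest was 0.355, for *Lamc1*, the γ1-laminin gene, with a log2 difference of 0.31 of NoFR from NoFC mice.

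Astrocytes with and without *Adra1a*, the α1A-adrenoreceptor gene, gave a second split within mice that the rule did not use. In all 16 mice, 634 pairs were matched on total UMIs, 12 to 76 a mouse, and the mouse was a block in edgeR's test. The pairs took 634 of 733 *Adra1a*-positive cells. Matching left the median UMIs higher on the positive side in most mice. The medians ran from 11442 against 10458 in NoFR mouse 4 to 12375 against 12557, the other way, in NoFC mouse 4. The part of this depth difference in the results was not tested. *Sspn* failed the filter on low counts and was kept as a member. No member passed an adjusted p of 0.05, beside 0.109% of 5508 genes that did. At an unadjusted p under 0.05 there were 689 genes, and DESeq2 called 20.

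*Utrn* came nearest. *Adra1a*-positive astrocytes had 213 to 304 CPM over the mice, with a median of 247, and their partners 120 to 256 CPM, with a median of 213. The level was higher in positive cells of 15 of 16 mice, with FC mouse 1 the exception at 213 and 219 CPM. The log2 difference was 0.29 ± 0.07 (SE; 95% interval 0.14 to 0.44), with an adjusted p of 0.0778 by edgeR over all genes. An exact 2-sided test over all 65536 assignments of signs to the mice gave p = 9.16e-05 before any adjustment. That p measures the spread between mice only as far as the weak hashtag calls on astrocytes hold, which was not tested. DESeq2 gave an adjusted p of 0.0361. With a mouse left out, edgeR gave adjusted p from 0.0422 to 0.175, under 0.05 only without FC mouse 1 (0.0422) or FR mouse 4 (0.0431).

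*Dmd* was higher in positive cells of 10 of 16 mice, with a median of 899 CPM against 778 CPM and a log2 difference of 0.15 (0.02 to 0.27, adjusted p = 0.294). *Aqp4* had medians of 586 and 590 CPM and was higher in 8 mice and lower in 8, with a log2 difference of −0.01 and an interval of −0.13 to 0.11. *Sgcb* had a log2 difference of −0.23 (−0.48 to 0.02, adjusted p = 0.465), and *Sgcd* −0.14 (−0.41 to 0.12). Without matching on UMIs *Utrn*, *Dmd* and *Dtna* all passed the test, at adjusted p of 0.000352, 0.00344 and 0.0280 by edgeR, in a setting where 875 genes did, against 6 with matching. Of the 3 lists 0 genes were called, and *Sntb1*, the β1-syntrophin gene, was nearest with a log2 difference of 0.36 (adjusted p = 0.221).

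**Figure D5:**
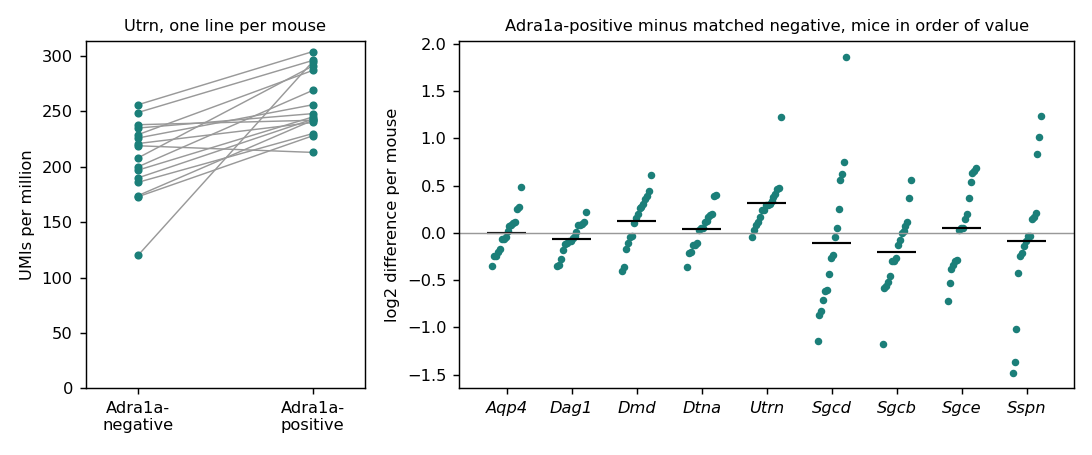
Left, *Utrn* in CPM in *Adra1a*-negative and positive astrocytes, 1 line per mouse. Right, log2 difference of positive from matched negative astrocytes for each member, 1 point for each of 16 mice in order of value, with a line at the mean. *Utrn* lies above 0 in 15 of 16 mice, and *Aqp4* is spread evenly about 0.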

How the data were processed

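Integer matrices made against mm10 were deposited by the authors, and held UMI counts of genes and hashtags per barcode. The processing notes name Cell Ranger 3.0, whereas the matrix headers name version 7.0.0. Strand and intron settings were not given in the sources used here. The members and gene lists were chosen with earlier results of these data known. The named genes were all 9 members, the 3 pathway lists by their counts with the values of those past the fold or the test (at most 6 a list by size), and the 5 genes most like *Aqp4* and *Sgcd*. Some genes of the lists are counted but not reported here by name.

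From the deposited counts, UMIs were summed per library and class and given as CPM. In the class contrast a gene was counted with at least 30 UMIs over both classes together in every library. No doublet caller was run, the class limits alone keeping out barcodes with markers of both classes. Positive and negative astrocytes were paired by nearest total UMIs, within 10%. For mice, barcodes of 100 or more genes and less than 6% mitochondrial UMIs were assigned with HTODemux (Seurat 5.3.0, quantile 0.99) from hashtags with at least 100 UMIs in a library, and hashtag doublets were left out. Sums per mouse were tested with edgeR 4.0.16 (R 4.3.3; quasi-likelihood, TMM, library or mouse as a term), with Benjamini-Hochberg adjustment over all genes tested, and with exact permutation tests, not blocked by library, in scipy 1.17.1. Members that failed the filter on low counts were kept. DESeq2 1.42.0, other filters, hashtag settings and left-out mice were alternatives. The scripts were tested on simulated data. In counts simulated at an assumed spread, edgeR recovered 62.5% of 2-fold changes in astrocytes and 49% in pericytes, both for FR against NoFC. The simulation gave every gene the same spread and held no library effect and no cell given to a wrong mouse. Its figures are therefore not the recovery to be had in these data. Smaller changes were not simulated.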

Additional observations from a re-analysis of the deposited data

Results flagged for a closer look

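In 72 groups of 4 mice (9 members, 4 groups, 2 cell classes), the mouse farthest from the others was set against the range of its group, and 3 stood apart by Dixon's limit, where chance gives about 1 in 20. *Utrn* in pericytes of NoFC mouse 3 was the lowest of its group at 1183 CPM (663 UMIs), with the other NoFC mice between 1239 and 1249 CPM. *Sgcd* in pericytes of FC mouse 2 was at 6.13 CPM, from 2 UMIs, with the other FC mice at 0. *Sgcd* in pericytes of NoFR mouse 3 was at 23.4 CPM, from 7 UMIs, with the other NoFR mice at 0. In both *Sgcd* groups the other mice at 0 fix the ratio to the range at 1.00 whatever the remaining value, so the rate of 1 in 20 does not apply there. The cause of these values was not tested.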

How the results depend on the processing

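Of 541 values under alternatives, 494 kept their direction and side of the threshold or moved by less than the spread between replicates, 25 counts or values moved, 7 values newly passed the test and 15 changed sign. The class contrast kept its 3 and 2 members past 2-fold under every alternative run, leaving out a library included. Without matching on UMIs, 5 members were higher and 0 lower in *Adrb1*-positive astrocytes of every library, and *Dtna* had a log2 ratio of 0.02. Thinning moved *Sspn* there to 0.43, *Sgcd* to −0.14 and *Aqp4* to 0.20, and with at least 2 *Adrb1* UMIs in positive cells 2 members were higher and 2 lower, with *Sgce* at −0.27, *Sspn* at 0.25, *Dtna* at −0.09 and *Sgcd* at 0.03. Members called in the *Adra1a* comparison numbered 1 by DESeq2 (*Utrn*), 2 at a hashtag quantile of 0.95 (*Utrn*, adjusted p = 0.00409, and *Dmd*, 0.00257, by edgeR), 3 without matching, and 0 to 1 with a mouse left out. There, the log2 difference of *Aqp4* was 0.03 without the mitochondrial filter, 0.02 with hashtags of at least 1000 UMIs, 0.10 without matching and −0.03 to 0.01 with a mouse left out, and that of *Sgcd* was 0.01 without the mitochondrial filter and 0.16 without matching. Across groups in astrocytes, *Sgcd* in FC against NoFC was −0.06 without the mitochondrial filter and −0.10 with hashtags of at least 1000 UMIs, and *Aqp4* in FR against NoFC was −0.02 at a quantile of 0.95. In pericytes *Dag1* in FR against NoFC was 0.03 at that quantile. The cause was not tested. The limit of 1000 UMIs and the *Sgcd* limits were chosen after seeing the data, as was a stricter hashtag call (10 or more UMIs, 3-fold over the next hashtag). That call could not be fitted in astrocytes, where no NoFC mouse and no NoFR mouse kept the 10 cells required. Only FC mouse 1 (101 astrocytes) and FR mouse 3 (27 astrocytes) kept that many.

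Over all genes in astrocytes, the 0 calls of edgeR in each pair became 10 to 32 with no filter on low counts. In pericytes, 55 calls for NoFR against NoFC became 24 at a quantile of 0.95, 34 by DESeq2 and 63 without the library term, 20 for NoFR against FC became 4 by DESeq2 and 41 without the library term, 5 for FR against NoFC became 0 by DESeq2 and 10 with no filter, and 3 for FR against NoFR became 1 by DESeq2 and 17 with no filter. In the *Adra1a* comparison, 6 calls became 4 without NoFR mouse 4, 20 by DESeq2 and 875 without matching. No paired analysis was possible because, between behavioural groups, the replicate numbers join hashtag and gene counts of the same cells and pair no mice. The *Adra1a* comparison was itself made within mice. Depth limits these values in pericytes, where a mouse had 0 to 5 UMIs of *Aqp4*, 1 to 7 of *Dtna*, 0 to 7 of *Sgcd* and 3 to 14 of *Sgcb*, and *Sspn* in astrocytes, with 11 to 60 UMIs.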
